A study of Mus musculus with 8 samples.

Results

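Far intergenic chromatin, the part of the genome that lies in gene deserts, was followed through the first 2 h of Ikaros induction in a mouse pre-B cell line. A far region was a merged ATAC-seq peak that overlapped no gene of the GENCODE vM21 annotation, of any type, and lay over 100 kb from every protein-coding start site. Of 174718 merged regions, 15788 (9.04%) met this rule, against 49884 other intergenic regions and 109046 that overlapped a gene. The distance to the nearest protein-coding start site had a median of 226 kb and reached 2687 kb, and 795 far regions were over 1 Mb away. The member closest to the limit lay at 100.008 kb and the nearest region outside it at 99.992 kb. All positions are on the mouse build GRCm38 (mm10).

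The cells were B3, an established mouse pre-B line, transduced with Ikaros-ERt2, a fusion of the transcription factor Ikaros (IKZF1) with a hormone-binding domain that enters the nucleus when 4-hydroxytamoxifen (4-OHT) is added. Per the study's methods, the fusion came from a retroviral vector and transduced cells were sorted for GFP. All cells compared here carry it. Cells at 0 h were untreated, and the others received 4-OHT at 500 nM over 30 min, 1 h or 2 h. Each of the 4 time points had 2 replicates, 8 libraries in all. Whether untreated cells received the solvent is not stated in the sources used here, so what 4-OHT or its solvent did by itself cannot be told apart from what Ikaros did. Nothing states that replicates are separate cultures, so p-values measure the spread between these libraries, which may be technical.

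ATAC-seq marks DNA that the Tn5 transposase can reach, chiefly promoters, enhancers and insulator sites freed of nucleosomes. Regions deep in gene deserts hold no promoter of a coding gene, and those that are open are often distal enhancers or sites of CTCF, the insulator protein that anchors chromatin loops. Ikaros binds DNA through zinc fingers at a short GGAA or GGGA core, and in B-cell precursors it recruits the NuRD corepressor complex to enhancers of the pre-B programme. In such bulk data, fewer cells with an open region and less opening in each cell cannot be told apart.

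The sequences below are 200 bp windows around the summit of far regions that moved, shown as examples of windows rich and poor in Ikaros cores and picked from the named regions with their values known. They are read on the plus strand of the RefSeq GRCm38 sequence and named by the protein-coding genes at both sides. Capitals mark the core words GGAA and GGGA on either strand, so also TTCC and TCCC, with overlapping words run together.

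Tbc1d1–Klf3, fell, chr5:64364534-64364733: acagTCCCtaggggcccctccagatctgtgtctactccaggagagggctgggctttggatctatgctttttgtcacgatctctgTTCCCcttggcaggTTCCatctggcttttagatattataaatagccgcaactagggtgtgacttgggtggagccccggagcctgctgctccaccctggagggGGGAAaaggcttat
Meis2–Tmco5, fell, chr2:116715895-116716094: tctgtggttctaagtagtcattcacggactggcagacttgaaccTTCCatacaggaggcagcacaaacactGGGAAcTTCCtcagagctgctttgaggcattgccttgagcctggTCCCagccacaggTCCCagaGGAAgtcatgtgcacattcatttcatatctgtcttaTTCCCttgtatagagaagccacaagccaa
St3gal1–Zfat, lost, chr15:67972054-67972253: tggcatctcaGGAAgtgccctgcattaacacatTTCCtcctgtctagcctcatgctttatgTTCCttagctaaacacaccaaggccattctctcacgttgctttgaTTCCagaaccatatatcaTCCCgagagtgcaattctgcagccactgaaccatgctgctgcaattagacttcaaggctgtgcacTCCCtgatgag
Foxo1–Cog6, rose, chr3:52890167-52890366: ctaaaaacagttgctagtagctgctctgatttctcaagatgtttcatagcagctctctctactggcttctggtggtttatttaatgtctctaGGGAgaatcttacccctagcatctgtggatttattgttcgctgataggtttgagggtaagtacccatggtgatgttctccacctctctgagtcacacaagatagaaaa
Slc7a14–Kcnmb2, rose, chr3:31464357-31464556: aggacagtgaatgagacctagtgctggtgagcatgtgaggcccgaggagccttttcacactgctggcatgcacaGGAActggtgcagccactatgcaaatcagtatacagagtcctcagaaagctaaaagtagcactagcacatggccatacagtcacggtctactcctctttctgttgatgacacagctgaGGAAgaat
Pcdh9–4921530L21Rik, rose, chr14:95775822-95776021: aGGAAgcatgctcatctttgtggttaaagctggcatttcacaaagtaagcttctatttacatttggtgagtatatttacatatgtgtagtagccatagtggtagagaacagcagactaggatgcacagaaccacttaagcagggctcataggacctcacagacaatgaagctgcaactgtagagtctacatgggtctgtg

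The windows that fell or were lost held 6, 9 and 6 core words, and the 3 that rose held 1, 2 and 1. Other named regions were less clear-cut: the 3 further falls held 5, 6 and 2 core words and the 2 further lost regions 12 and 3, while the 2 further rises held 1 and 3 and the 2 gained regions described held 4 each. The shares over all far regions follow further on.

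Far peaks were weaker than others in every library. The 8 lists held 85903 to 103897 peaks, and the background that the peak caller used, which stands for depth, was 0.26 to 0.405 fragments per base, lowest in the second 0 h library. Between 5855 and 7833 far regions had a peak in a list, 6.86% to 7.70% of its regions. Within a list, regions were ranked by the fold of their highest peak over local background, and the rank was expressed as a percentile of all regions with a peak in that list. By this measure the median far region stood at 36.1 to 42.1, and 5.80% to 6.56% of far regions were above the 90th percentile of a list. Far regions were also narrower (median 109 bp, against 128 bp for other intergenic regions and 135 bp for genic ones), and their summits held a median of 9 fragments against 12 over all regions. A peak was present in all 8 lists for 2661 of them (16.9%), against 27.4% of all regions, and in only 1 list for 35.9%, against 27.6%.

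The labelled cell type was checked at start sites. Among the pre-B markers reported, 7 had a peak within 1 kb of a start site in all 8 lists and Rag1 in 7 lists. Of the 6 myeloid markers, 5 had no peak in any list and Lyz2 had one in 2 lists. Among 6 T-cell and 6 erythroid markers, only Lat and Hbb-bs, respectively, had a peak in all 8 lists, and 3 and 2 had none.

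Presence of a peak was lost from far regions more often than from other regions, at each of the 3 times. A region counted as lost where each 0 h list had a peak in it and no list of the later time did. Of 4686 far regions in both 0 h lists, 777 (16.6%) were lost at 30 min, 1014 (21.6%) at 1 h and 1113 (23.8%) at 2 h. The same shares over all regions were 10.9, 14.6 and 16.6%. Other intergenic regions lost 17.7% at 2 h and genic regions 15.4%. Gains were counted on another base, the regions in neither 0 h list, and by it were less frequent among far regions. Of 7224 far regions in neither 0 h list, 579 (8.01%) were gained at 30 min, 1144 (15.8%) at 1 h and 1544 (21.4%) at 2 h, against 11.1, 19.2 and 23.9% of all regions. With 2 libraries against 2 no test of a single region's presence can reach a p of 0.05, so these shares are descriptions. The comparisons share the 0 h libraries. Losses and gains have unlike bases. Regions in neither 0 h list include those with a peak in 1 later list only, which cannot count as gained. A peak in 1 list only was found for 35.9% of far and 27.6% of all regions. Shares among regions whose replicates agreed at every time, given below, have a further base, which also holds constant regions. They cannot be set against these gains.

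**Figure D1:**
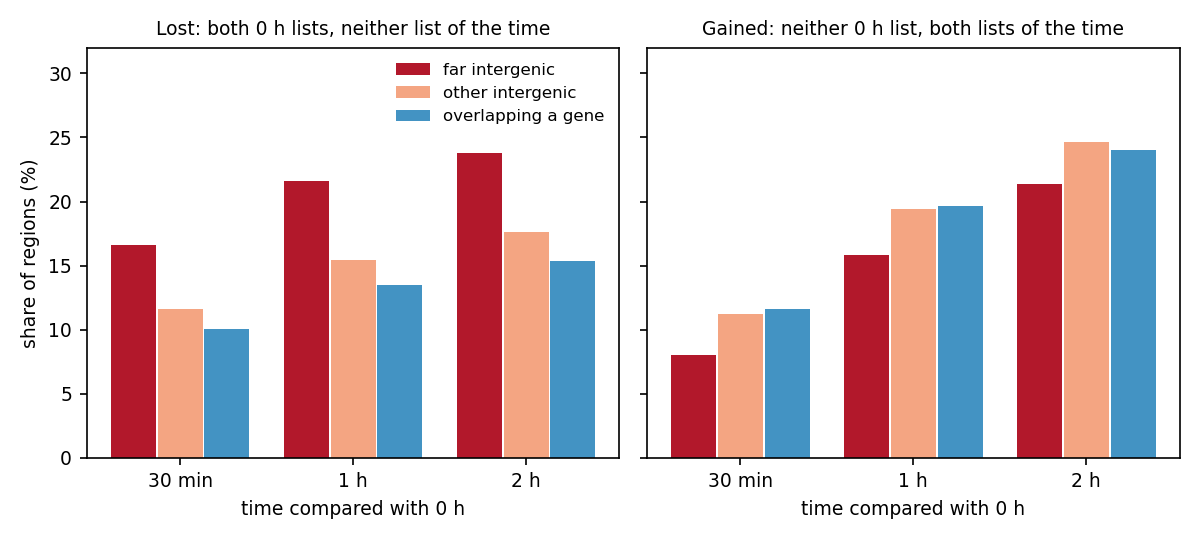
Share of regions (%) lost (left, of regions in both 0 h lists) or gained (right, of regions in neither 0 h list) at 30 min, 1 h and 2 h, for far intergenic, other intergenic and genic regions; bars are single values over the 4 libraries compared and have no error bar. On these bases, which differ, far regions stand highest for losses, with 23.8% at 2 h, and lowest for gains, with 21.4% at 2 h.

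Both shares were higher among low peaks, so far regions were also compared at matched height, a comparison added after the data had been seen. Among regions with a mean of over 20 fragments at the summit at 0 h, 29 of 1015 far regions (2.86%) were lost at 30 min, 51 (5.02%) at 1 h and 71 (7.00%) at 2 h, against 1.94, 3.96 and 5.12% of all such regions. Other intergenic regions of that height lay close to far ones, with 2.58, 4.83 and 6.64% lost. Genic ones lost 1.68, 3.61 and 4.51%. With over 12 and up to 20 fragments the shares of far and of all regions lost at 2 h were 18.9% and 15.9%. With over 8 and up to 12 they were both 22.4%, and with up to 8 they were 37.1% and 33.1%. At matched height the excess of lost far regions was thus smaller, in percentage points, than over all heights. Gains among regions with over 20 fragments at the later time were few. Of these, 8 of 973 far regions (0.822%) were in neither 0 h list at 30 min, 16 of 1011 (1.58%) at 1 h and 27 of 1016 (2.66%) at 2 h, against 0.766, 1.86 and 2.76% of all such regions.

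Most far regions lost at 2 h had no peak at 30 min, while a minority of those gained at 2 h had one in both lists by then. Of the 1113 far regions lost at 2 h, 656 (58.9%) were already absent from both lists at 30 min and 852 (76.5%) at 1 h. Of the 1544 gained at 2 h, 365 (23.6%) were in both lists at 30 min and 718 (46.5%) at 1 h. At 30 min, 187 of the lost regions were still in both lists and 270 in 1, while 646 of the gained were in neither and 533 in 1. A loss was counted by absence from both lists and a gain by presence in both. Weak peaks meet the former rule more easily, so these counts cannot compare the timing of losses and gains. Both replicates gave one answer at every time for 4259 far regions. Of these, 605 (14.2%) had a peak at 0 h and never again, against 8.96% over all regions, and 80 (1.88%) had one at 0 h and 30 min only, against 1.25%. Gains that lasted began at 30 min in 278 (6.53%, against 5.95%) and at 1 h in 167 (3.92%, against 2.66%), and 218 (5.12%, against 2.91%) had a peak only at 2 h. A peak at every time was found in 62.5% of them and in 74.1% of all. Both lost and gained regions were mostly weak when present. In untreated cells those lost at 2 h averaged a percentile of 38.9 ± 3.21 (SD, n = 2), and after 2 h those gained averaged 37.2 ± 1.06 (SD, n = 2).

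The rank of regions present throughout was then compared. Every list had a peak in 47875 regions, 2661 of them far, and these were ranked by fold in each list. The ranks were compared between time points as normal scores with limma at a Benjamini-Hochberg adjusted p under 0.01. At 2 h, 143 far regions were lower than at 0 h (5.37%) and 89 were higher (3.34%), against 4.71% and 2.28% of all regions tested. At 1 h, 71 were lower (2.67%, against 2.51% of all) and 35 higher (1.32%, against 1.1% of all). At 30 min limma called 0 far regions in either direction, as it called 0% of all regions. At an unadjusted p under 0.05, 291 far regions were lower (10.9%, against 9.94% of all) and 294 higher (11.0%, against 9.51% of all) at that time, and with a mean trend and robust prior in limma 21 and 8 passed the adjusted threshold. Between 30 min and 2 h limma also called 0 far regions (0% of all), although 639 of them (24.01%) had an unadjusted p under 0.05, against 16.9% of all regions, and with the trend and robust prior 7 were lower and 3 higher at the adjusted threshold.

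All 143 lower regions had both 2 h percentiles below both 0 h percentiles, and all 89 higher ones had them above. The regions were called on ranks in these same libraries, so this separation follows largely from the call. Their median change was −46.0 and 50.1 percentile points. Ranks are relative: the median percentile change of all regions tested was 3.61 points and that of the far ones 6.29 points, and single changes are to be read against that. In untreated cells the lower regions stood at a mean percentile of 88.4 ± 0.795, which went to 70.6 ± 1.63 after 30 min, 57.3 ± 3.26 after 1 h and 44.5 ± 1.49 after 2 h (SD, n = 2 libraries at each time). The higher ones stood at 37.6 ± 5.04, 69.2 ± 2.02, 79.3 ± 0.964 and 85.7 ± 0.795. In the same order of times, the median summit held 49, 37, 24, 20, 16, 14, 11 and 11 fragments in the lower regions, and 9, 6, 16, 15, 23, 21, 31 and 28 in the higher ones, replicate 1 before replicate 2. So the fall and the rise were also seen in fragments, without ranks. Their timing depended on the scale: by percentile most of the rise was over by 30 min and the fall ran in more equal steps, while in fragments most of the fall was over by 30 min and the rise ran in more equal steps. These means describe regions chosen for their change. Of the lower regions, 63 were also called at 1 h, and of the higher ones 28.

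The calls rested on each library of a comparison. Without the second 0 h library limma called no far region at 2 h (with an unadjusted p under 0.05, 404 were lower and 460 higher), and without the first 16 were lower and 9 higher. Without the first 2 h library 29 were lower and 5 higher, and without the second 18 and 1. At 1 h, leaving out any 0 h or 1 h library left no call in limma, while 326 to 368 had an unadjusted p under 0.05 and were lower, and 369 to 423 were higher.

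**Figure D2:**
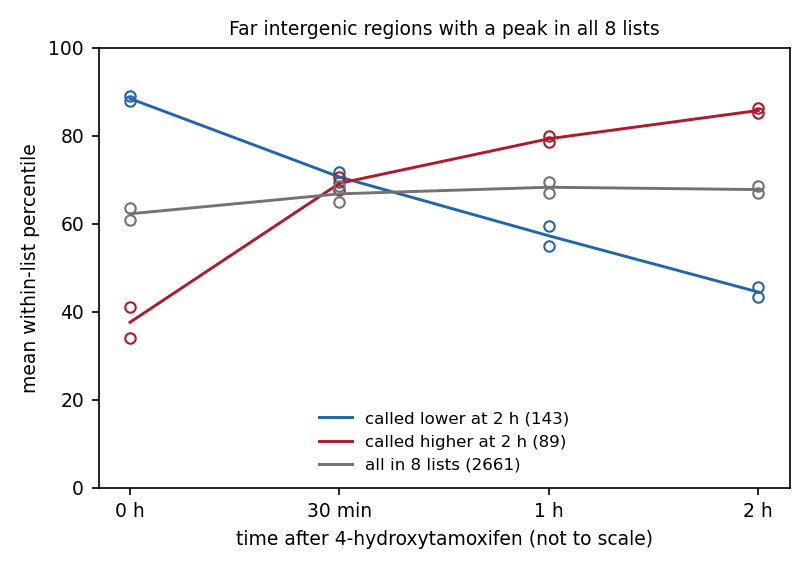
Mean within-list percentile of far regions with a peak in all 8 lists, by time, for those called lower at 2 h, those called higher at 2 h and all 2661 tested; each circle is 1 library and lines join the means of 2. The lower class falls from 88.4 to 44.5 and the higher class climbs from 37.6 to 85.7, while all tested stay between 62.3 and 68.3.

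The largest fall was at chr5:64364462-64364766, between Tbc1d1, which regulates glucose transporter traffic, and Klf3, a zinc-finger repressor of the Krüppel-like family, 134 kb from the nearer start site. Its percentile was 94.0 and 84.1 in untreated cells, 48.9 and 53.2 after 30 min, 29.6 and 16.5 after 1 h, and 14.1 and 6.33 after 2 h. Fragments at the summit went from 49 and 28 in untreated cells to 6 and 5 after 2 h. Each time lay wholly below the one before. The difference of 2 h from 0 h was −3.16 ± 0.306 (SE) normal-score units, with an adjusted p of 0.000958 in limma.

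The next fall lay at chr2:116715802-116716181 between Meis2, a homeobox gene, and Tmco5. Summit fragments numbered 87 and 70 in untreated cells, 17 and 17 after 30 min, 11 and 8 after 1 h, and 8 and 7 after 2 h, and the percentile dropped from 92.6 and 93.8 to 14.6 and 15.7 (limma, adjusted p = 0.000958). Most of the loss in fragments was thus complete at 30 min, when the replicates held the same number. The region at chr4:67232449-67233263, 405 kb from Tlr4, the lipopolysaccharide receptor, held 90 and 75 fragments in untreated cells and 7 and 8 after 2 h (limma, adjusted p = 0.00128). Some of its window is repeated, and 7.91% of its 24-base stretches occur elsewhere in the genome.

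At chr7:129759838-129760220, between Wdr11 and the growth factor receptor gene Fgfr2, the percentile still reached 79.9 and 62.4 after 30 min and had dropped to 39.0 and 36.9 after 1 h and 21.1 and 8.97 after 2 h, from 87.9 and 85.3 in untreated cells. Its mean drop at 30 min was the smallest of these 5 falls. The fifth, at chr13:106640489-106640750 between the serotonin receptor gene Htr1a and the importin gene Ipo11, fell from 93.2 and 91.7 in untreated cells to 28.4 and 14.1 after 2 h, with replicates far apart at 1 h (57.7 and 15.0). The adjusted p in limma was 0.00106 for the former and 0.00181 for the latter.

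**Figure D3:**
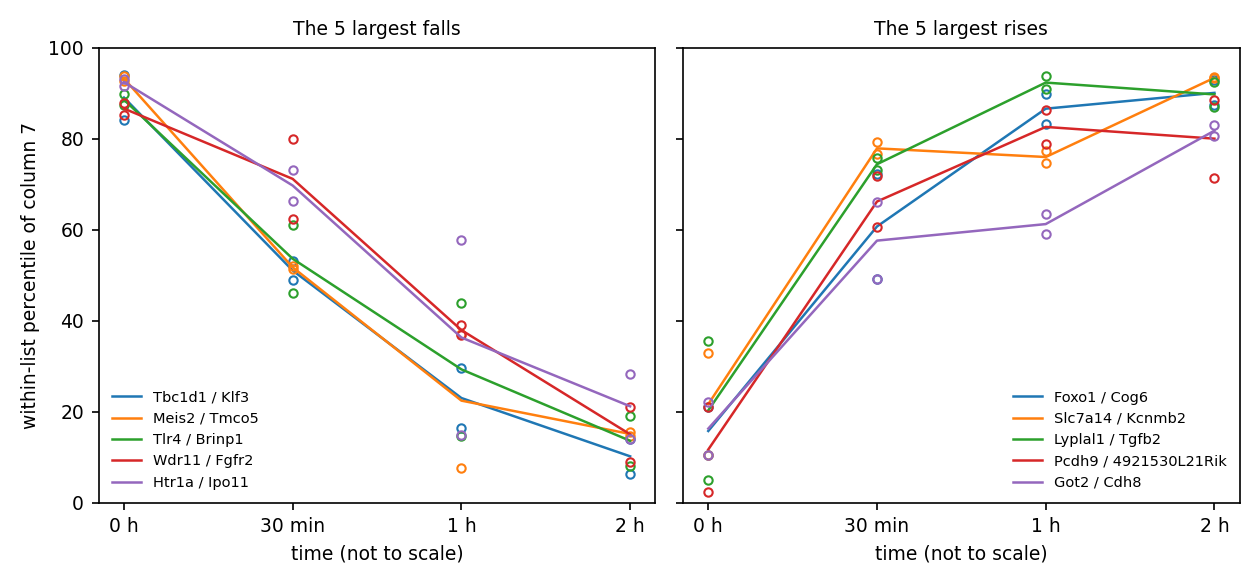
Within-list percentile of peak fold (column 7 of the peak lists) by time for the 5 far regions with the largest fall (left) and the 5 with the largest rise (right) among those called at 2 h, named by the genes at both sides; circles are single libraries and lines join means of 2. No 2 h circle overlaps the 0 h circles of the same region, which follows largely from choosing the regions by this change.

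The largest rise was at chr3:52890135-52890405, in the desert between Foxo1, a transcription factor needed for early B-cell genes, and the Golgi gene Cog6. Its summit held 6 and 4 fragments in untreated cells, 15 and 9 after 30 min, 20 and 25 after 1 h, and 24 and 30 after 2 h. The percentile was 21.0 and 10.6 in untreated cells and 87.4 and 92.8 after 2 h (limma, adjusted p = 0.00144), and no library of a later time overlapped those of 0 h. At chr3:31464303-31464577, between the transporter gene Slc7a14 and the potassium channel subunit gene Kcnmb2, fragments rose from 5 and 6 in untreated cells to 18 and 17 after 30 min, 19 and 16 after 1 h and 34 and 33 after 2 h (limma, adjusted p = 0.00131). There the rise came in 2 steps, with no difference between 30 min and 1 h beyond the replicates.

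At chr14:95775760-95776022 in the Pcdh9 desert, where 6 and 3 fragments were found at 0 h, 27 and 16 were found at 2 h. The region at chr8:96128330-96128633, between Got2, a mitochondrial transaminase gene, and the cadherin gene Cdh8, went from 5 and 5 fragments to 20 and 18. Both had an adjusted p under 0.01 in limma, of 0.00415 and 0.00211. The rise at chr1:186408541-186408794, between Lyplal1 and Tgfb2, a growth factor gene, was of another kind: its fragments numbered 19 and 21 in untreated cells and 41 and 32 after 2 h, while the local background fell from 4.10 and 2.90 fragments to 0.998 and 0.945. Its fold over background therefore rose more than its fragments did (limma, adjusted p = 0.00305). With recovered fragments in place of ranks this rise no longer passed (limma, adjusted p = 0.0575), and over all its alternatives the adjusted p ran from 0.00015 to 0.0575.

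Among lost and gained regions, those with most fragments in each class were named. One loss, over a local background of 1.2 and 1 fragments in untreated cells, was at chr15:67971992-67972382, 286 kb from the zinc-finger gene Zfat on the side of the sialyltransferase gene St3gal1. Its summit held 57 and 34 fragments in untreated cells, 16 and 13 after 30 min and 6 and 5 after 1 h, and there was no peak at 2 h, so the loss was gradual. The other lost regions had higher local backgrounds. At chr3:52391207-52391454 in the Foxo1–Cog6 desert there were 53 and 41 fragments in untreated cells over a background of 4.74 and 3.31, and no peak at any later time. At chr12:79842417-79842668, between the recombination gene Rad51b and Zfp36l1, whose protein promotes mRNA decay, there were 42 and 48 fragments over 8.68 and 6.67. Of the later libraries only the first of 30 min had a peak there, with 16 fragments, and its percentiles in untreated cells were 13.5 and 43.7.

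Of the gained regions with most fragments, 2 are described, and both had a high local background. At chr3:52397371-52397537, also between Foxo1 and Cog6, peaks of 30 to 48 fragments appeared in all 6 later lists over a local background of 5.98 to 7.18. At chr13:111982888-111983067, beside the kinase gene Map3k1, there were 38 and 37 fragments after 2 h over 4.03 and 3.79. These 4 lay in dense stretches, with 8 to 11 other merged regions within 10 kb of each.

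The strongest constant far regions also held much repeated sequence. The 3 with the highest mean percentile over the lists, at chr1:102628195-102628331, chr12:115448169-115448572 and chr3:5860345-5860570, stood between 99.96 and 99.99 in every list and their mean changed between 0 h and 2 h by 0.00716, −0.0118 and −0.000905 percentile points. Of their 24-base stretches, 48.0, 85.3 and 100% occur elsewhere in GRCm38. Reads of the third therefore cannot be assigned to this place with certainty. Of 15 far regions in the top hundredth of all 8 lists, 6 had at least 50% of their stretches elsewhere, against 8.12% of far regions in all 8 lists. None of these 3 windows held the CTCF word.

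Regions that closed held more Ikaros cores than regions that opened. In windows of 200 bp, the 143 lower far regions held 2.95 ± 1.18 core words per 100 bp (SD over regions) and the 1113 lost ones 2.93 ± 1.24. The 89 higher ones held 1.399 ± 0.896 and the 1544 gained ones 1.33 ± 0.931, with 1.98 ± 1.07 in 509 far regions that stayed within 5 percentile points with an adjusted p over 0.05. Over all merged regions the lower, lost, higher and gained ones held 3.03, 3.08, 1.45 and 1.47, so the contrast was not particular to far regions. Of far regions in both 0 h lists, 7.90% were lost at 2 h where the window held 0 to 2 core words, 19.9% where it held 3 to 5 and 40.4% where it held 6 or more. Over all regions these shares were 4.69, 13.0 and 28.2%. The gains ran in the opposite order, at 26.6, 18.7 and 13.0% of far regions in neither 0 h list and 28.1, 22.3 and 17.2% of all such regions. GC content was 46.9% in lost and 46.2% in gained far regions. Cells hold a family of proteins that bind GGAA, among them ETS factors, and a word is not a bound site.

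**Figure D4:**
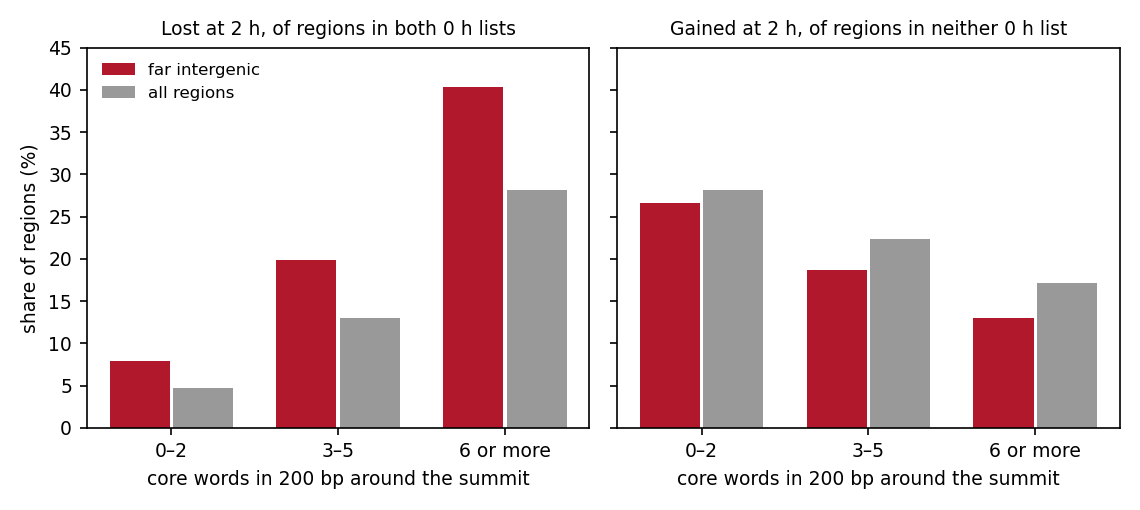
Share of regions (%) lost (left) and gained (right) at 2 h by the number of Ikaros core words in the 200 bp around the summit, for far intergenic regions and for all merged regions; bars are shares over regions and have no error bar. For far regions losses climb from 7.90% to 40.4% and gains drop from 26.6% to 13.0% as core words become more frequent.

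Other words were counted on both strands in the same windows. The longer Ikaros word GGGAA was in 58.7% of lower and 57.1% of lost far regions, and in 23.6% of higher and 23.2% of gained ones, against 39.4% of all far regions and 41.4% of all merged regions. In the same order of classes, the shares over all merged regions were 58.6, 60.3, 25.8 and 27.6%. The ETS word GAGGAA, which contains the core GGAA, was in 41.3% of lower and 23.6% of higher far regions (28.2% of all far, 24.8% of all merged regions). The word of EBF1, a factor that specifies B cells, is TCCC and GGGA with 2 free bases between them, so that it also contains cores, and was in 13 of the 143 lower regions (9.09%) and in 4 of the 89 higher ones (4.49%), against 2.51% of all merged regions. The RUNX word TGTGGT, which holds no core, was in 37.8% of lower and 38.2% of higher far regions, against 25.9% of all merged regions. E-box words (CAGCTG or CAGGTG) were in 36.4% of lower and 42.7% of higher far regions (32.9% of far regions in all 8 lists, 31.5% of all merged regions). The forkhead word TGTTTAC was in 1 lower and 3 higher far regions, and in 5.76% of gained against 1.62% of lost ones (2.62% of all merged regions).

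Regions with the CTCF word were seldom among those that closed. The word was in 689 far regions (4.36%, and in 4.39% of all merged regions), of which 302 were in all 8 lists. At 2 h, 0 of these 302 were lower, which allows a share of up to 0.993%, and 13 (4.30%) were higher, by limma. Of all 4322 tested regions with the word, the lower made up 0.532% and the higher 1.57%. Among the far ones, at an unadjusted p under 0.05, 7 were lower and 87 higher, and with the mean trend and robust prior 0 were lower and 25 higher at the adjusted threshold. Of far regions in both 0 h lists, 8 of 365 with the word were lost at 2 h (2.19%) and 1105 of 4321 without it (25.6%). Over all merged regions the shares were 2.19% and 17.7%, so the share lost among regions with the word was not particular to far regions. For gains the 2 shares lay closer, at 26.8% and 21.2% of those in neither 0 h list, against 29.4% and 23.8% over all merged regions. Windows with the CTCF word were not matched on height to those without, and the part of height in this difference was not tested.

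Gained far regions held more repeats. The window was over 50% soft-masked, the mark of repeats in the reference sequence, in 31.7% of gained and 8.89% of lost far regions, against 21.6% of all far regions and 15.3% of all merged regions. Over all merged regions it was so in 23.6% of gained and 6.04% of lost ones. The contrast between gained and lost was thus not particular to far regions. At least 50% of the 24-base stretches occurred elsewhere in the genome in 335 of the 1544 gained regions (21.7%) and in 66 of the 1113 lost ones (5.93%). Without these, 1209 far regions were gained and 1047 lost at 2 h, so the excess of gains over losses was smaller. That excess also depended on list length: with lists of equal length 1172 were gained and 1232 lost at 2 h, and 944 and 1072 at 1 h, so that losses outnumbered gains. The part of multi-copy mapping in the gains was not tested.

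The far regions lay in 1522 gene deserts, here the interval between neighbouring protein-coding start sites, with a median of 6 far regions each and a median length of 539 kb. A far region was counted as moving if it was lost, gained, lower or higher at 2 h, which 2889 were (18.3%, against 17.8% of all merged regions). Movement was spread widely: 942 deserts held at least 1 moving region, 178 at least 5 and 34 at least 10. In 394 deserts regions moved in both directions. Deserts are ordered below by their number of moving regions, which favours deserts with many far regions. Their moving shares are to be read against the 18.3% of all far regions.

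Of the deserts reported, the interval from Adam6a to Zfp386 on chromosome 12, which holds heavy-chain variable segments, had most moving regions. These were 37 among 173 (21.4%), 16 lost and 4 lower against 11 gained and 6 higher. Its number of peaks stayed level (107 and 98 in untreated cells, 99 and 100 after 2 h). These segments are near-copies of each other, and 20 of the 37 moving regions had at least 50% of their stretches elsewhere. Without such regions the count was 17, and the desert from Agtr1b to Tbl1xr1 came first with 20.

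That desert, 1709 kb on chromosome 3, lies between an angiotensin receptor gene and the gene of a subunit of the NCoR corepressor complex. It had 21 moving of 65 far regions (32.3%) and leaned to closing by count. Of its regions, 13 were lost and 3 were lower, 5 were gained and none was higher. More of them could be lost than gained, as 33 were in both 0 h lists and 21 in neither. A peak was present in 39 and 38 of them at 0 h, 31 and 24 after 30 min, 29 and 29 after 1 h, and 29 and 29 after 2 h. Every later library lay below both of 0 h, and 7 far regions were lost there at 30 min and 10 at 1 h.

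The desert between Lyplal1 and Tgfb2 on chromosome 1, named here through its rising region, leaned to closing by count. Of 35 far regions in 588 kb, 16 moved (45.7%), 13 of them lost and 1 lower, against 1 gained and 1 higher. More regions could be lost than gained there, with 20 in both 0 h lists and 4 in neither. Peaks were present in 27 and 24 in untreated cells, 19 and 14 after 30 min, 12 and 11 after 1 h, and 12 and 10 after 2 h. The decline ran from 0 h to 1 h and then stopped, with 7 lost at 30 min and 11 at 1 h. None of its 16 moving regions was mostly repeated sequence.

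Some deserts leaned to opening by count. The 2 h lists were longer (103897 and 99060 peaks, against 93936 and 85903 at 0 h), and these counts were not corrected for that. From Pcdh9, a neuronal protocadherin gene, to 4921530L21Rik on chromosome 14, 12 regions were gained and 3 were higher against 3 lost, among 81. Peaks there numbered 35 and 31 in untreated cells and 41 and 51 after 2 h. Between Brinp3 and Pla2g4a, the gene of a phospholipase that releases arachidonic acid, on chromosome 1, 10 were gained and 5 lost among 69, and peaks rose from 23 and 25 to 32 and 36. In both, the 2 h libraries lay above those of 0 h, but the 30 min libraries spread across them (38 and 29, and 29 and 18). More regions could be gained than lost: 37 in the Pcdh9 desert were in neither 0 h list and 22 in both. Between Brinp3 and Pla2g4a these numbers were 39 and 18. The moving share was 22.2% in the former desert and 24.6% in the latter. With lists of equal length neither desert was among the 8 with most moving regions.

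Other deserts with many moving regions were balanced. Between Runx1, a master regulator of blood cells, and the methyltransferase gene Setd4 on chromosome 16, 8 were lost and 8 gained among 75, and peaks numbered 38 and 36 in untreated cells and 35 and 36 after 2 h. Between the kinesin gene Kif2a and Smim15 on chromosome 13, 8 were lost and 8 gained among 60. From the potassium channel gene Kcnt2 to the galactosyltransferase gene B3galt2 on chromosome 1, 7 were lost and 8 gained among 56. In this order of deserts the moving share was 22.7, 28.3 and 30.4%.

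**Figure D5:**
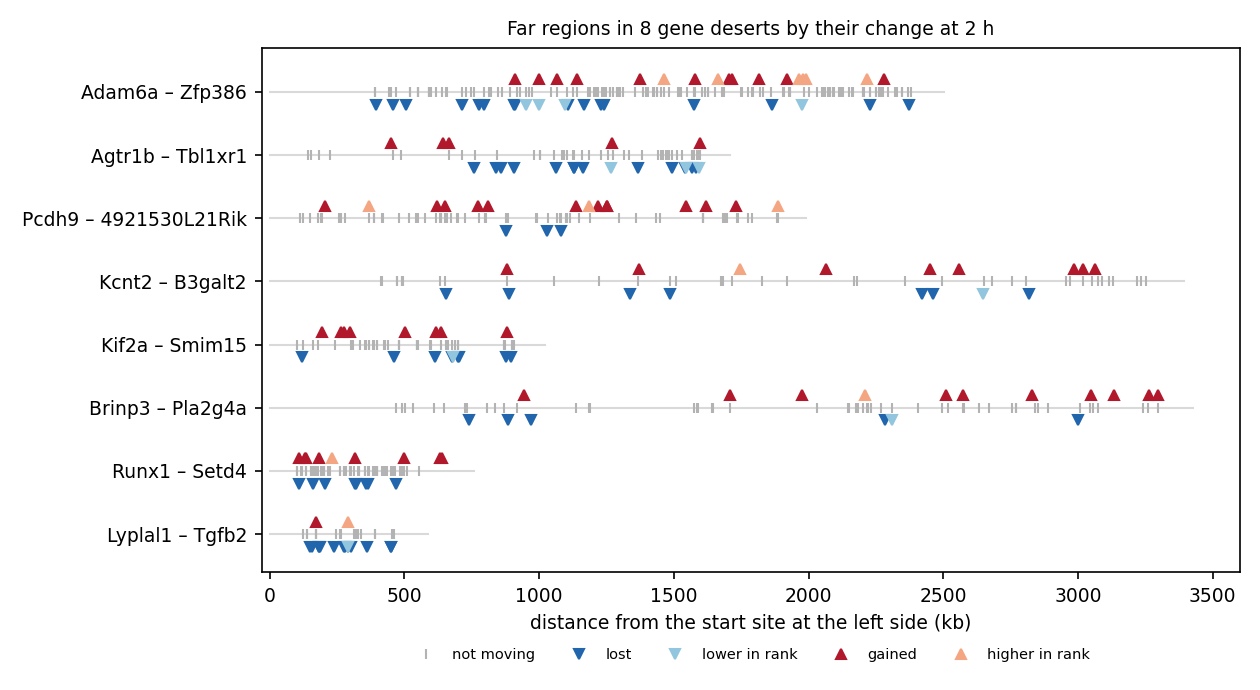
Far regions in 7 of the deserts with most moving regions and in the Lyplal1–Tgfb2 desert, by distance (kb) from the start site at the left side of the interval; down triangles are regions lost or lower at 2 h, up triangles regions gained or higher, grey ticks regions that did not move. By count, closing regions dominate between Lyplal1 and Tgfb2 (14 of 16) and opening ones between Pcdh9 and 4921530L21Rik (15 of 18). The numbers of regions that could be lost or gained differ between deserts and are not shown.

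Deserts beside blood cell regulators were compared with deserts beside neural adhesion genes, which are best known from neurons. Of 44 regulators, 29 bordered a desert, with 856 far regions at 22.9 per Mb, and of 37 neural adhesion genes 36 did, with 1011 at 9.03 per Mb. The length used runs from start site to start site. It thus includes gene bodies and the 100 kb beside each start site, where by the rule no far region can lie. The densities were not corrected for this, so their difference cannot be read as one of open chromatin. A peak in all 8 lists was found for 19.6% of the former and 13.5% of the latter. The shares that moved lay close together: 68 of 289 (23.5%) and 53 of 242 (21.9%) were lost at 2 h, and 78 of 366 (21.3%) and 118 of 518 (22.8%) were gained. Among regions tested for rank, 11 of 168 (6.55%) beside regulators and 3 of 136 (2.21%) beside adhesion genes were lower, against 5.37% of all far regions tested, and 8 (4.76%) and 7 (5.15%) were higher. These small counts were not tested against each other.

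A few of the regulators, chosen after their values were seen, show the range. In the desert beside Zeb2, a zinc-finger repressor, there were 112 far regions, of which 16 moved, with 6 lost, 7 gained and 3 lower. Beside Mef2c, a factor of B-cell and muscle genes, 13 were gained and 3 lost among 79, of which only 18 were in both 0 h lists. Beside Myc, the growth regulator, 7 were lost and 1 gained among 33, of which 14 were in both 0 h lists. Beside Bcl11a, which is needed for B-cell development, 6 were lost, 2 gained and 1 lower among 32, with 15 in both 0 h lists. Next to Pax5, the B-cell identity factor, none of 12 moved, but only 4 were in both 0 h lists and 1 in all 8 lists. Beside Foxo1 14 of 77 moved, with 5 lost, 6 gained, 2 lower and 1 higher. The share that moved was 14.3% beside Zeb2, 22.8% beside Mef2c, 24.2% beside Myc, 28.1% beside Bcl11a and 18.2% beside Foxo1. Of all far regions 18.3% moved.

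Within the far class, regions were also set out by distance. From 100 to 200 kb, 22.8% of far regions in both 0 h lists were lost at 2 h, from 200 to 500 kb 24.8% and beyond 500 kb 24.3%. Gains were 20.9, 20.9 and 23.2% of regions in neither 0 h list. The share with a peak in all 8 lists fell with distance, from 18.99% to 15.8% and 13.9%. Among those, 5.91, 4.87 and 4.78% were lower and 2.96, 3.46 and 4.31% higher.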

How the data were processed

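ATAC-seq of 8 libraries of B3 cells was used. Per the study's methods and the submitters' processing notes, the authors aligned reads with BWA 0.7.17 in a public ATAC-seq workflow, shifted ends for the Tn5 offset, kept nucleosome-free fragments, removed regions of an exclusion list and called peaks with MACS2 2.1.2 on each library alone. The deposited lists give each peak's fold over local background (a ratio), its −log10 p-value and −log10 q-value, and its summit. These values are not scaled between libraries. The methods text names a human build, the labels GRCm38, and all peaks lie inside the GRCm38 chromosomes. Counts per region were not used here, and count models were not fitted.

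Fold and p-value fix the whole number of fragments at a summit and the background under the caller's Poisson model, which fitted 100% of peaks in each list. Single summits of about 12 fragments limit precision. Peaks overlapping by at least 1 base were merged on chromosomes 1 to 19, X and Y. GENCODE vM21 gave genes and start sites. For rank, folds of regions in all 8 lists were turned into normal scores per list and fitted with limma 3.58.1 in R 4.3.3 (lmFit, eBayes, 4 groups in 1 model, Benjamini-Hochberg). The fragment recovery and the fit were tested on simulated data. Words were counted in 200 bp around the summit of the peak with most fragments, on both strands; the CTCF word was the 12-letter one used for the series. Stretches of 24 bases were looked up in the whole RefSeq GRCm38 sequence, 1 stretch in 4 for the counts over classes.

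The regions, the gene lists and the words were chosen with earlier results of these data known. Named regions were the 5 largest falls and rises in mean percentile among those called at 2 h, the 3 lost and 3 gained with most fragments and the 3 with the highest mean percentile; named genes border them or the 8 deserts with most moving regions, or belong to the 2 lists. Classes of fragment number, the repeat counts and the Lyplal1–Tgfb2 desert's values were added after the data had been seen. Results on 1 marker gene and on 1 desert, with the gained region in it, are not reported here. Alternatives were the threshold and length of lists, overlap, distance, ranking measure, filter, prior, replicate block and leaving out libraries.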

Additional observations from a re-analysis of the deposited data

How the results depend on the processing

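Far losses at 30 min and 1 h numbered 514 and 667 with peaks of −log10 q of at least 5, and other presence counts stayed within 1.5 times under that threshold, with lists of equal length and with a peak over at least 50% of the region. With fewer regions in the class, lost and gained counts at 30 min, 1 h and 2 h were 401 and 309, 552 and 635, and 604 and 910 beyond 200 kb (8843 regions), and 137 and 90, 194 and 214, and 204 and 285 where the start sites of all annotated genes counted (2918 regions). Leaving out 1 library, which eases the rule, gave 987 to 1937 lost and 862 to 2090 gained at 30 min, 1237 to 2175 and 1484 to 2869 at 1 h, and 1368 to 2275 and 1917 to 3254 at 2 h.

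For rank, lower and higher calls at 30 min, 1 h and 2 h were 53 and 7, 227 and 113, and 316 and 162 with recovered fragments in place of ranks, 65 and 1, 514 and 140, and 709 and 272 over regions in at least 2 lists (10118 far regions tested), and 49 and 18, 219 and 200, and 328 and 289 at an adjusted p under 0.05. With a mean trend and robust prior they were 21 and 8 after 30 min, 142 and 103 after 1 h, and 213 and 155 after 2 h. Ranking among all peaks of a list gave 36 lower after 1 h, and at 2 h 55.4% of calls lower against 61.6%. Beyond 200 kb, 31 and 21 were called at 1 h and 65 and 50 after 2 h. Leaving out 1 library gave 0 to 65 lower and 0 to 28 higher after 1 h, 0 to 142 and 0 to 72 at 2 h, and 0 at 30 min. The cause of these differences was not tested, apart from the smaller sets.

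Replicates share numbers, but nothing says that a number marks a pair, and the deviations of same-numbered libraries correlated by 0.0172 to 0.0403 across regions. The replicate block gave 62 lower and 25 higher after 1 h, 140 and 71 after 2 h and 0 at 30 min, within 1.5 times of the fit without it. Across 140 refits of the 10 named falls and rises the direction held in each, and 31 no longer passed, 29 of them where a 0 h or 2 h library was left out (10 without the second 0 h library). The Adam6a–Zfp386 count of 37 stayed at 27 to 33 with stricter or equal lists or presence alone, but was 17 without repeated sequence. The set of deserts was less stable. Of the 8 with most moving regions, 4 stayed among the first 8 with stricter lists and 5 with equal lists. By presence alone 7 stayed, and without repeated sequence 5. Dok5–Cbln4 and Gm5148–Ankrd50 entered with stricter lists, with equal lists and without repeated sequence. Peaks of few fragments limit all presence calls.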

Other observations

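Some deserts beside neural adhesion genes also held moving far regions. Beside Cdh8, which encodes a cadherin, 21 of 79 moved at 2 h (26.6%, against 18.3% of all far regions). Of these, 9 were lost, 11 gained and 1 higher in rank. Beside Pcdh17, 6 were lost and 9 gained among 55, and beside Tenm3, a teneurin gene, 7 were gained and 0 lost among 27, of which 2 had a peak in both 0 h lists. By contrast, none of 28 moved beside Cdh18 and none of 13 beside Lrrtm4, but only 4 and 1 of them had a peak in both 0 h lists. These genes were picked from the fixed list after their values were seen, and no test was made.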
